A study of Homo sapiens with 12 samples.

Results

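Glycolysis splits glucose into pyruvate in the cytosol, and lactate dehydrogenase turns pyruvate into lactate when it is not passed to mitochondria. Under low oxygen the transcription factors HIF-1α and HIF-2α (genes HIF1A and EPAS1) escape hydroxylation by the EGLN enzymes. Between them, and not each alone, they switch on most glycolytic genes together with genes of angiogenesis, mitophagy and pH control. Many tumour lines, colorectal ones among them, run this programme in part without low oxygen. BRG1, encoded by SMARCA4, is an ATPase that moves nucleosomes as part of SWI/SNF complexes.

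A set of 40 glycolysis and hypoxia response genes was followed in RNA of 12 arrays from the established human colorectal cancer lines DLD1 and HCT 116. The genes were picked by symbol, and 37 of the 40 had a row among the 17687 named genes of the deposited table, with 1 row each. CA9, PFKFB4 and SLC16A3 were not analysed here. The groups were HCT 116 with siRNA against BRG1 (HCT 116 siBRG1), HCT 116 with control siRNA (HCT 116 siControl), DLD1 siBRG1 and DLD1 siControl, with 3 arrays each. The siRNA sequences, the time after transfection and the oxygen and glucose of the cultures are unknown here. The labels do not tell whether replicate arrays are separate cultures, and p-values therefore reflect the spread among these arrays alone, which may be technical. All values are log2 expression as deposited. Changes are log2 differences (siBRG1 minus siControl unless stated), a gene is said to rise or fall at a limma Benjamini-Hochberg adjusted p under 0.05 over all named genes, and SE is limma's standard error.

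The target was low in every siBRG1 array. SMARCA4 read 6.78, 6.39 and 7.03 in HCT 116 siBRG1 against 10.12, 10.15 and 9.59 in HCT 116 siControl, and 6.29, 6.55 and 6.31 in DLD1 siBRG1 against 10.31, 9.95 and 10.29 in DLD1 siControl. Array medians lay between 6.36 and 6.50, and a value near or below them cannot be told from background, as the table has no detection calls. Of the 37 genes, 27 lay above that range on all 12 arrays, ENO2 and ANGPTL4 lay below it on all 12, and 8 were mixed. Of 9 measured colorectal epithelial markers, 6 lay above it on every array, EPCAM and the keratins among them, while VIL1, CDX1 and CEACAM5 did not. Fibroblast, leukocyte and endothelial markers were low, with COL1A2 the 1 marker of the 13 measured above it on every array. On the log2 scale the summed leukocyte markers (4 of 5 measured, none above the medians on every array) ran from 7.50 to 7.86 in HCT 116 siBRG1 and from 6.79 to 6.97 in HCT 116 siControl. CD68 averaged 7.05 and 5.76 there (limma adjusted p = 0.0036), and PTPRC, which defines leukocytes, 4.04 and 3.87, below every array median in its mean. Their part in the HCT 116 results below was not tested.

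The promoters of the 4 genes that passed in a siBRG1 comparison are shown first, because they carry the calls. They are RefSeq windows on GRCh38.p14 from 250 bases before to 50 after a gene's start, with matches to ACGTG or GCGTG, the core letters of a hypoxia response element, in capitals on either strand (as CACGT or CACGC when on the other). PFKL lies at chr21:44299803-44300102 (plus strand), HK2 at chr2:74834920-74835219 (plus), PDK1 at chr2:172555840-172556139 (plus) and CA12 at chr15:63381797-63382096 (minus).
PFKL: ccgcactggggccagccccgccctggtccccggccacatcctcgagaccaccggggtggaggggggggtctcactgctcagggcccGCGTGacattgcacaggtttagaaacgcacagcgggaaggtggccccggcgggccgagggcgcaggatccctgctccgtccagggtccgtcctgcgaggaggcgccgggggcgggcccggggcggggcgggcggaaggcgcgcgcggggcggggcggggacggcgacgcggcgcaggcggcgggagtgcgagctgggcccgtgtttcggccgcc
HK2: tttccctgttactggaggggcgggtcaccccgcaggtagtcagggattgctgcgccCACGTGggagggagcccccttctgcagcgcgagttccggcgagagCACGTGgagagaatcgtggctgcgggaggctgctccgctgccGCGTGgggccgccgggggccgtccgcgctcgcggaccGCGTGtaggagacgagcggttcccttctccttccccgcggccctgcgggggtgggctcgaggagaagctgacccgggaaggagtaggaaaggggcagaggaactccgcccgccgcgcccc
PDK1: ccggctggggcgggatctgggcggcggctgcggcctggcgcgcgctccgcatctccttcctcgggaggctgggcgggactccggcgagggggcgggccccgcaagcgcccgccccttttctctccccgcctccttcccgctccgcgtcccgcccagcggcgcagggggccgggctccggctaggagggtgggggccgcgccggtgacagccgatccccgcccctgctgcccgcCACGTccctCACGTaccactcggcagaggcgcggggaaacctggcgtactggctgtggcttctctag
CA12: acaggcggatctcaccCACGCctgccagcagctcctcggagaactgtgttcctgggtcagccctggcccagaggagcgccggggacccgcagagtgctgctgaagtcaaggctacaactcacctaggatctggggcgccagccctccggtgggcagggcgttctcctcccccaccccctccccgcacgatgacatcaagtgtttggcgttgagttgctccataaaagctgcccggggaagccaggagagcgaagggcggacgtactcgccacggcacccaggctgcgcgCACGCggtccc
The HK2 window holds 2 copies of CACGTG, the E-box that MYC and HIF partners also bind, and each of them contains ACGTG on both strands. HK2 and PDK1 have 2 windows each in the table, and the one with more matches is printed. The 35 listed genes with an entry have 63 windows, of which 38.1% hold ACGTG, 41.3% GCGTG and 12.7% CACGTG, beside 21.4%, 36.5% and 7.26% of all 35116 windows. A match is a description of these letters, not of binding.

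In HCT 116, 2 of the 37 genes fell after BRG1 knockdown and none rose, a share of 5.41% beside 6.95% of all named genes (2.82% higher and 4.13% lower), so the count does not set the 37 apart. In bulk RNA, fewer cells of a kind and less RNA per cell cannot be told apart. PFKL, the liver-type subunit of phosphofructokinase, the committing step of glycolysis, read 9.55, 9.72 and 9.81 in HCT 116 siBRG1 against 10.88, 11.14 and 11.65 in HCT 116 siControl. Every siBRG1 array lay below every siControl array, and PFKL fell by 1.53 (SE 0.23, limma adjusted p = 0.00116), a call kept without any 1 of the 12 arrays. The other subunits did not pass: PFKM had a change of −0.34 and PFKP of 0.39. CA12, a membrane carbonic anhydrase that acidifies the outside of the cell, read 5.94, 6.10 and 5.84 in HCT 116 siBRG1 against 7.10, 6.56 and 6.85 in HCT 116 siControl. It fell by 0.87 (SE 0.25, limma adjusted p = 0.0496), at the edge of the threshold, and all its siBRG1 values lay below every array median. The CA12 call stood in 3 of the 12 fits that left out 1 array and was lost when arrays were centred on their medians (limma adjusted p over all alternatives 0.0117 to 0.211).

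In DLD1 none of the 37 genes passed, with limma calling 0.198% of all named genes (35). With the replicate number as a block in both lines, 98 named genes passed and none of the 37. With the block in DLD1 alone, a choice made after seeing the data, 106 passed, among them VEGFA (−0.89, limma adjusted p = 0.0396). At an unadjusted p under 0.05 there were 6 of the 37 in DLD1 and 10 in HCT 116, beside 1860 and 3615 of the 17687. PFKL read 11.36, 10.81 and 10.64 in DLD1 siBRG1 against 11.33, 11.16 and 11.45 in DLD1 siControl, ranges that overlap. Its changes of −1.53 in HCT 116 and −0.38 in DLD1 differed by −1.15 (SE 0.32, limma adjusted p = 0.194), which did not pass. No gene of the 37 passed for the difference between lines (0.334% of all named genes did), and 7 had an unadjusted p under 0.05 there (18.9%, beside 8.99% of all named genes).

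Averaged over both lines, 3 of the 37 genes fell and none rose, a share of 8.11% beside 8.68% of all named genes (4.01% higher and 4.68% lower). The average change of PFKL was −0.95 (SE 0.16, limma adjusted p = 0.00282). HK2, the inducible hexokinase that traps glucose in the cell and docks on mitochondria, read 8.89, 8.67 and 9.15 in DLD1 siBRG1 against 9.90, 9.54 and 10.21 in DLD1 siControl. In HCT 116 it read 7.65, 8.08 and 7.46 with siBRG1 against 7.87, 8.76 and 8.91 with siControl, so that the groups were apart in DLD1 and overlapped in HCT 116. Its average change was −0.88 (SE 0.19, limma adjusted p = 0.0126), made of −0.98 in DLD1 and −0.78 in HCT 116, neither of which passed alone (limma adjusted p = 0.18 and 0.107). The HK2 and PFKL averages passed without any 1 array. PDK1, the kinase that holds pyruvate back from mitochondria by inhibiting pyruvate dehydrogenase, read 8.70, 8.91 and 8.63 in DLD1 siBRG1 against 9.67, 9.46 and 9.46 in DLD1 siControl. In HCT 116 it read 7.27, 8.58 and 8.12 with siBRG1 against 8.38, 8.46 and 9.37 with siControl. The DLD1 groups did not overlap and the HCT 116 groups did, and the average was −0.77 (SE 0.21, limma adjusted p = 0.0384). That call stood in 2 of the 12 fits without 1 array, with a limma adjusted p between 0.0188 and 0.0962 over all alternatives.

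The average depended on how the replicate block was set. With the block over all arrays 3 of the 37 passed, as without it (8.11%, beside 9.39% of all named genes). They were HK2, PFKL and PDK1, and all fell. With the block in both lines 8 of the 37 passed (21.6%, beside 14% of all named genes): HK2, PFKL, PDK1, ALDOC, EGLN3, CA12 and VEGFA fell and EGLN1 rose (0.38, limma adjusted p = 0.0368). With the block in DLD1 alone, where the arrays deviated in pairs, 4 passed (10.8%, beside 11%): HK2, PFKL, CA12 and VEGFA fell, and PDK1 did not pass.

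**Figure D1:**
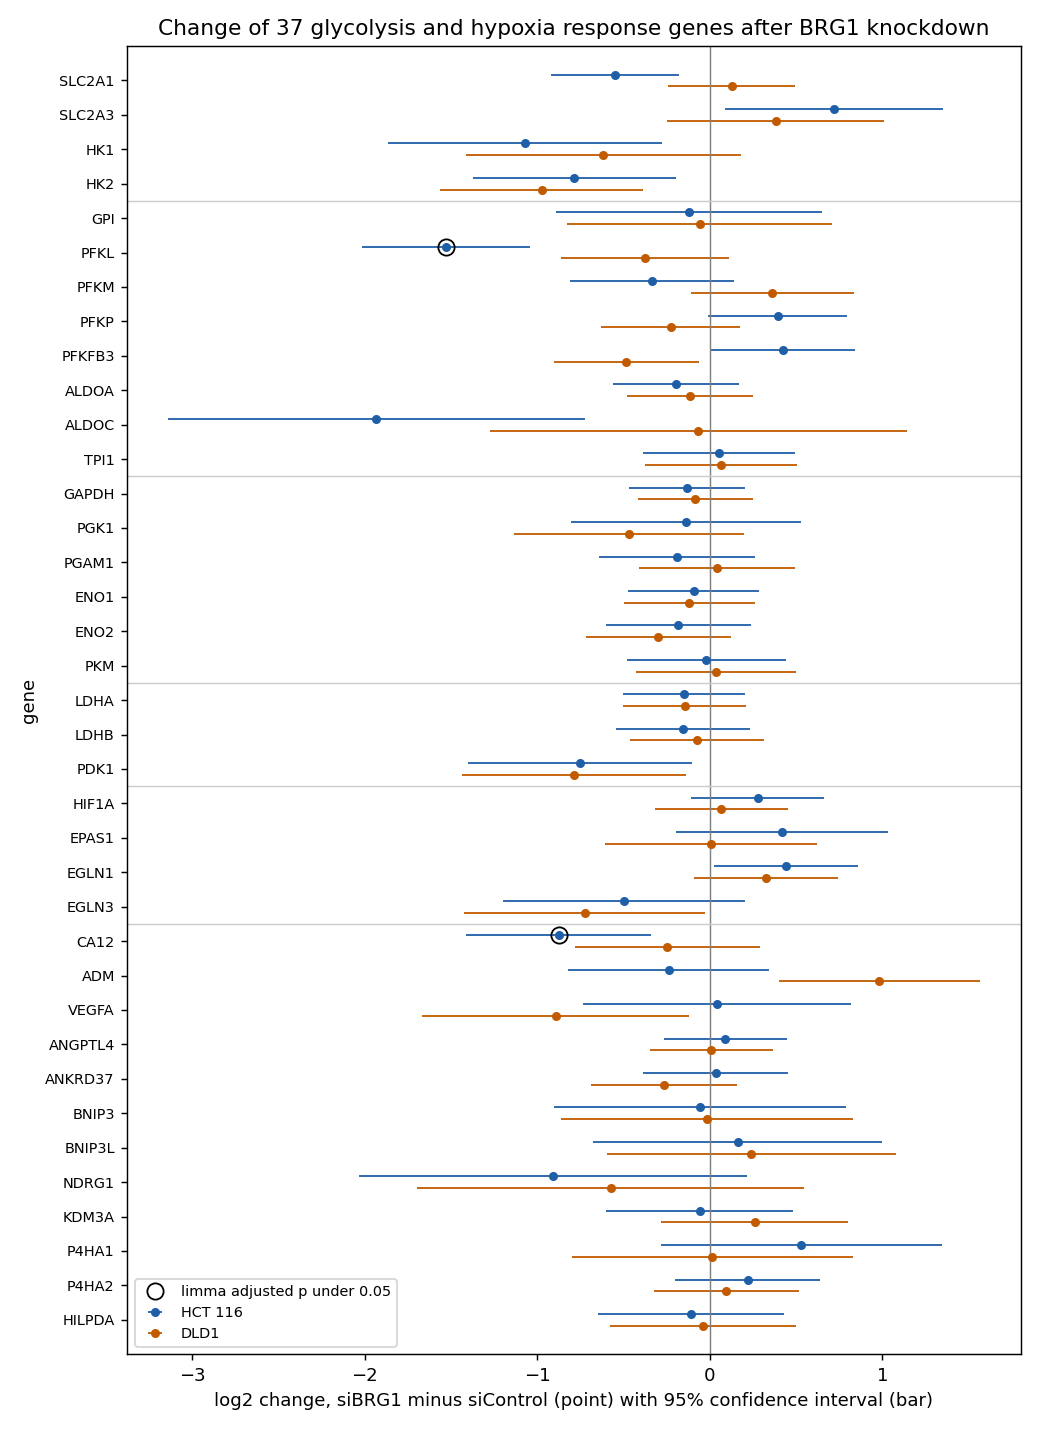
Log2 change (siBRG1 minus siControl) of each of the 37 genes in DLD1 and HCT 116, with 95% confidence intervals as bars, ordered by role from glucose uptake at the top to HIF targets at the bottom. PFKL (−1.53) and CA12 (−0.87) in HCT 116 are ringed as passing at a limma adjusted p under 0.05, and most other points lie within 0.5 of 0.

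**Figure D2:**
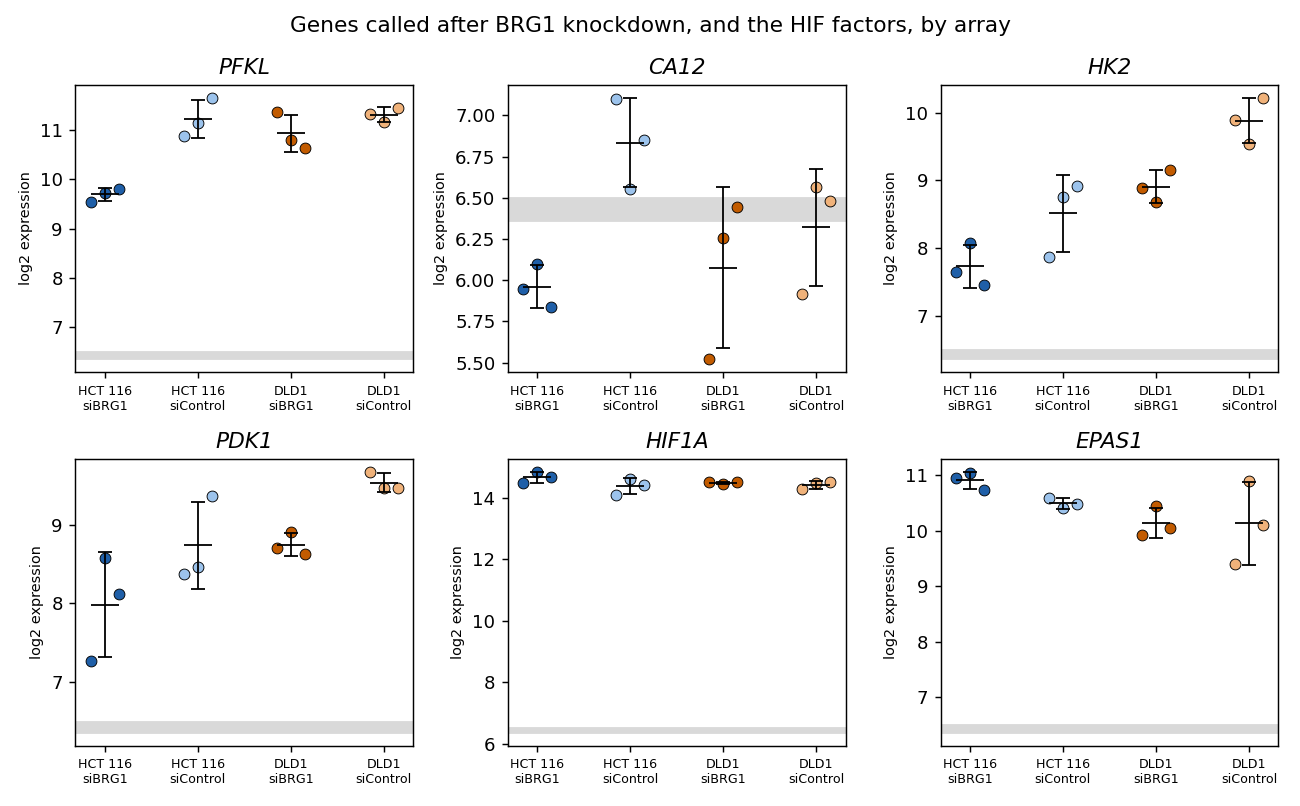
Log2 expression on each array (points), with the group mean and SD (n = 3), for the 4 genes that passed in a siBRG1 comparison and for HIF1A and EPAS1. The grey band is the range of array medians, 6.36 to 6.50; PFKL in HCT 116 siBRG1 (9.55 to 9.81) sits below all other groups, and HIF1A lies between 14.10 and 14.85 on every array.

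At the entry of the pathway, the glucose transporter SLC2A1 (GLUT1) and the hexokinase HK1 had changes of −0.55 and −1.07 in HCT 116 and of 0.13 and −0.62 in DLD1. Neither passed after siBRG1 (limma adjusted p = 0.0734 and 0.104 in HCT 116). SLC2A1 fell in HCT 116 under 4 alternatives, namely the block in both lines, a test of genes above the median level, a trended prior and array weights (limma adjusted p = 0.0423, 0.0349, 0.0114 and 0.0439). HK1 fell there with array weights (limma adjusted p = 0.0219), and on average under that trended prior, that level filter and those weights (limma adjusted p = 0.0449, 0.0412 and 0.0151). The second transporter, SLC2A3 (GLUT3), had changes of 0.72 in HCT 116 and 0.38 in DLD1 (limma adjusted p = 0.173 and 0.749). In upper glycolysis, the regulatory enzyme PFKFB3, which makes an activator of phosphofructokinase, had changes of 0.42 in HCT 116 and −0.48 in DLD1. The aldolase gene ALDOC had the largest change of the 37, −1.93 in HCT 116 (SE 0.57, limma adjusted p = 0.054), against −0.07 in DLD1. It read 6.81, 8.04 and 8.02 in HCT 116 siBRG1 and 8.17, 9.63 and 10.86 in HCT 116 siControl, groups that lay apart but were each spread widely. In DLD1 it read 6.17, 4.81 and 5.72 with siBRG1 and 6.42, 5.08 and 5.41 with siControl. These DLD1 values lay at or below the array medians, where a fall could not be seen. The isomerases GPI and TPI1 and the aldolase ALDOA had changes between −0.19 and 0.06 in both lines.

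No enzyme of lower glycolysis passed in either line. GAPDH read 17.25, 17.22 and 17.16 in HCT 116 siBRG1 against 17.22, 17.47 and 17.35 in HCT 116 siControl, and the 95% confidence interval of its change was −0.47 to 0.20 there and −0.42 to 0.25 in DLD1. PGK1, PGAM1, ENO1, ENO2 and PKM had changes between −0.47 and 0.04 over both lines, none past the test. GAPDH, ENO1, LDHA, PGK1 and PGAM1 have processed pseudogenes, and it is not known here whether their probes tell them apart. Each array had 94 to 112 values above 16, taken as the scanner limit on the log2 scale. GAPDH, ENO1 and LDHA lay above 16 on every array. Whether changes are compressed at such levels was not tested. The lactate dehydrogenase subunits LDHA and LDHB had changes of −0.15 and −0.16 in HCT 116 and of −0.15 and −0.07 in DLD1, with the LDHA interval reaching from −0.50 to 0.21 in each line.

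The HIF factors did not pass either. HIF1A read 14.48, 14.85 and 14.69 in HCT 116 siBRG1 against 14.10, 14.63 and 14.44 in HCT 116 siControl, and 14.52, 14.45 and 14.52 in DLD1 siBRG1 against 14.29, 14.48 and 14.51 in DLD1 siControl. Its changes were 0.28 (SE 0.18) and 0.07 (SE 0.18), with overlapping groups in both lines. EPAS1 read 10.95, 11.05 and 10.74 in HCT 116 siBRG1 against 10.60, 10.41 and 10.48 in HCT 116 siControl, groups that did not overlap, yet its change of 0.42 (SE 0.29) had a limma adjusted p of 0.469. In DLD1 it read 9.92, 10.45 and 10.05 with siBRG1 and 9.40, 10.89 and 10.11 with siControl (change 0.01). EGLN1, the main oxygen-sensing hydroxylase, had changes of 0.44 in HCT 116 and 0.33 in DLD1. EGLN3, itself a HIF target, had changes of −0.50 and −0.72. The EGLN3 values in HCT 116 (4.69 to 6.26) lay below every array median. HIF activity is set mostly by protein stability, which an RNA array does not measure.

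Among the 12 other HIF targets measured, CA12 in HCT 116 was the only one to pass without a replicate block. ADM, the vasodilator peptide adrenomedullin, had the largest positive change in DLD1, with 11.19, 10.12 and 10.79 in DLD1 siBRG1 against 10.21, 9.51 and 9.43 in DLD1 siControl (0.98, SE 0.27, limma adjusted p = 0.17), and −0.24 in HCT 116. VEGFA, the angiogenic growth factor, read 12.28, 12.23 and 10.65 in DLD1 siBRG1 against 12.85, 13.05 and 11.95 in DLD1 siControl (−0.89, limma adjusted p = 0.382), with replicate 3 the lowest in both groups. In HCT 116 VEGFA lay between 12.19 and 12.31 on all 6 arrays. The mitophagy receptors BNIP3 and BNIP3L, the histone demethylase KDM3A, the collagen prolyl hydroxylases P4HA1 and P4HA2, the lipid droplet protein HILPDA, ANKRD37 and ANGPTL4 had changes between −0.26 and 0.53. NDRG1, a differentiation-related gene, had −0.91 in HCT 116 and −0.57 in DLD1, with SEs of 0.53. Its DLD1 values (4.48 to 6.04) lay below every array median.

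Over the whole set the median change was −0.12 in HCT 116 and −0.07 in DLD1, against −0.01 and 0.01 over all named genes. In HCT 116 24 of the 37 changes were negative and 13 positive, beside 8510 positive of the 17687 named genes. In DLD1 22 were negative and 15 positive, beside 9207 positive of the 17687. Changes smaller than 0.5 in size numbered 27 of the 37 in HCT 116 and 30 in DLD1. The lean of the set was not tested. In HCT 116 7 of the 37 had siBRG1 and siControl arrays that did not overlap (18.9%, beside 24.9% of all named genes), and in DLD1 6 had (16.2%, beside 15.5%).

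The spread within groups was wide for these genes in HCT 116. The 3 arrays of a group differed by more than 1 log2 unit in 8 of the 37 genes in HCT 116 siBRG1 (21.6%, beside 7.37% of all named genes) and 12 in HCT 116 siControl (32.4%, beside 9.26%). In DLD1 they did so in 5 with siBRG1 (13.5%, beside 7.14%) and 3 with siControl (8.11%, beside 6.72%). HCT 116 siControl replicate 1 was the lowest of its group for 26 of the 37 genes, a share of 70.3% against 38.8% of all named genes, and replicate 3 the highest for 30, a share of 81.1% against 33.4%. The root mean square deviation from the group mean was 0.523 and 0.504 over the 37 genes on those arrays, and 0.320 and 0.248 over all named genes. GPI showed it, at 12.91, 14.04 and 13.98 in HCT 116 siBRG1 and 12.77, 14.06 and 14.46 in HCT 116 siControl. BNIP3L read 12.87, 14.08 and 13.85 with siBRG1 and 12.47, 13.39 and 14.45 with siControl, and NDRG1 read 5.88, 7.72 and 6.67 against 6.52, 7.65 and 8.83. In HCT 116 siBRG1, replicate 1 was the lowest for 20 of the 37 and replicate 2 the highest for 22.

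Those arrays bear on the calls. Without HCT 116 siControl replicate 1, 4 genes fell in HCT 116: PFKL, HK1 (−1.42, limma adjusted p = 0.0363), HK2 (−1.11, limma adjusted p = 0.0169) and ALDOC (−2.62, limma adjusted p = 0.00753), and 6 fell on average. That fit called 1205 of all named genes in HCT 116 and 1555 on average, beside 1230 and 1536 in the main fit. Without HCT 116 siControl replicate 3, PFKL fell and SLC2A3 rose (1.06, limma adjusted p = 0.0449), and 664 of all named genes passed in HCT 116. Without both HCT 116 arrays numbered 1, a choice made after seeing the data, PFKL, HK2 and ALDOC fell. There 991 of all named genes passed in HCT 116. CA12 passed in none of these 3 fits.

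**Figure D3:**
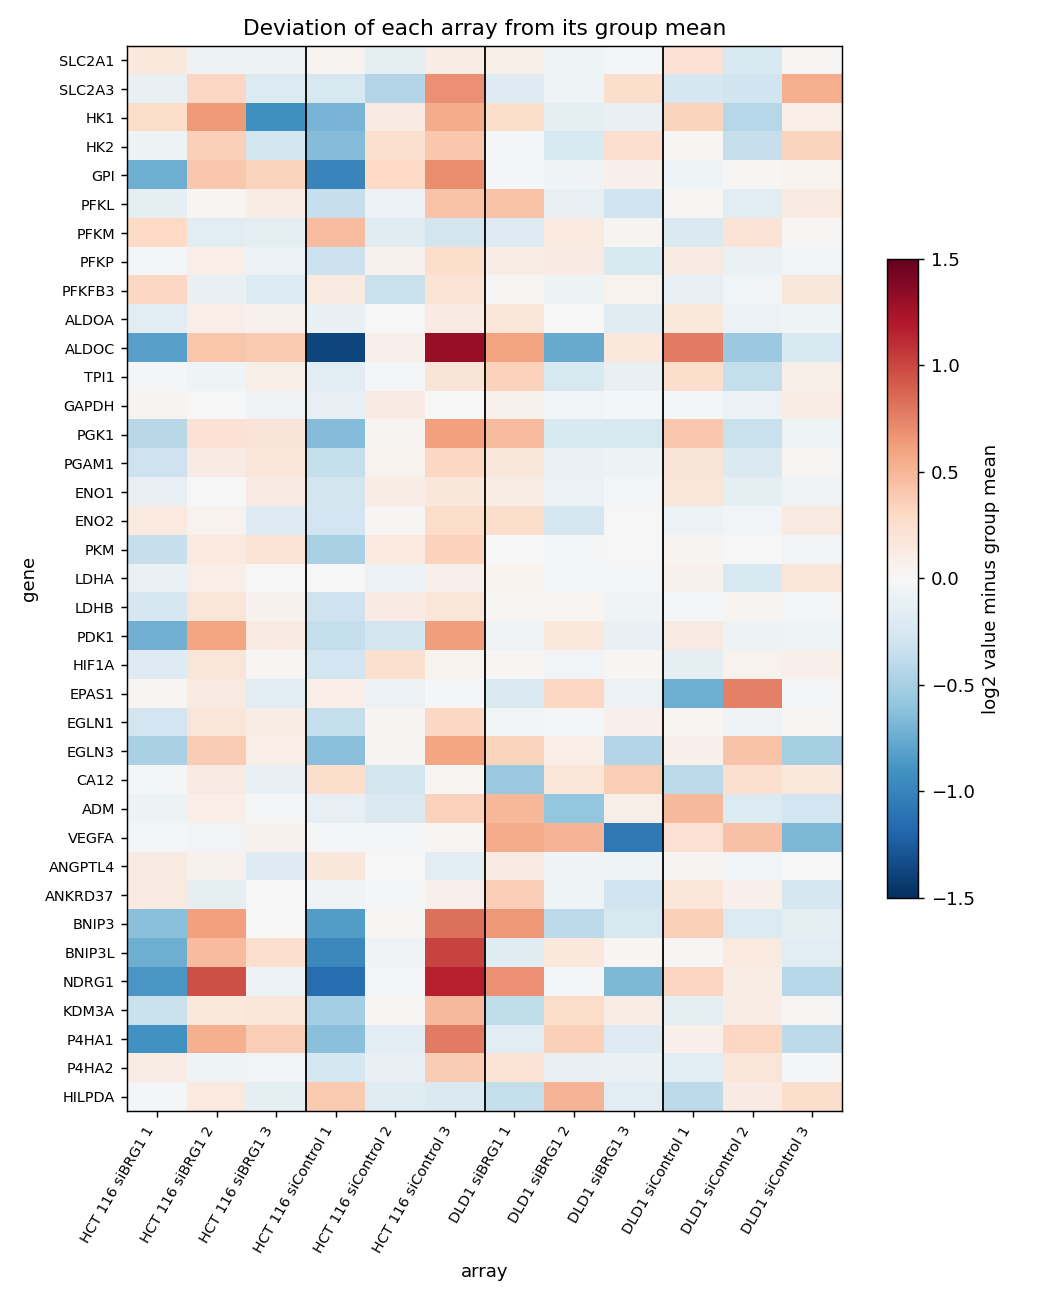
Deviation of each array (columns) from the mean of its group for the 37 genes (rows), on the log2 scale, blue below and red above the group mean. HCT 116 siControl replicate 1 is lowest of its group for 26 genes and replicate 3 highest for 30, and ALDOC, NDRG1, BNIP3L and GPI have the widest ranges in that group.

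Between the controls, 13 of the 37 genes passed, 8 higher and 5 lower in HCT 116 siControl than in DLD1 siControl, a share of 35.1% beside 27.6% of all named genes (13.6% higher and 14% lower). In 20 the groups did not overlap (54.1%, beside 40% of all named genes). SLC2A3 read 6.35, 6.15 and 7.28 in HCT 116 siControl against 12.79, 12.75 and 13.59 in DLD1 siControl (HCT 116 minus DLD1 −6.45, SE 0.29, limma adjusted p = 2.21e-10). The HCT 116 values stand at the array medians, so the size of the gap is uncertain, and after BRG1 knockdown the levels were 7.11 to 7.63 in HCT 116 and 13.23 to 13.68 in DLD1. BNIP3 ran the other way, at 10.10, 10.95 and 11.75 in HCT 116 siControl against 7.17, 6.61 and 6.68 in DLD1 siControl (4.11, SE 0.40, limma adjusted p = 1.11e-06), and its siBRG1 arrays read 10.25, 11.49 and 10.88 in HCT 116 and 7.45, 6.40 and 6.56 in DLD1. The BNIP3 values 6.61 and 6.68 in DLD1 siControl lay near the array medians, so the size of this gap is uncertain too. BNIP3L, the relative of BNIP3, did not pass between the lines (−0.73, limma adjusted p = 0.205).

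ALDOC read 8.17, 9.63 and 10.86 in HCT 116 siControl against 6.42, 5.08 and 5.41 in DLD1 siControl (3.92, SE 0.57, limma adjusted p = 7.31e-05). NDRG1 read 6.52, 7.65 and 8.83 against 6.04, 5.83 and 5.29 (1.95, SE 0.53, limma adjusted p = 0.0112), a call lost without 1 array in 2 of 12 fits. The DLD1 siControl values of ALDOC lay at or below the array medians and those of NDRG1 below them. The size of both gaps is therefore uncertain. HK2 was lower in HCT 116 siControl (−1.37, SE 0.28), as were P4HA2 (−1.37), EGLN3 (−1.28) and PKM, the pyruvate kinase of tumours (−0.95). The EGLN3 values in HCT 116 siControl (5.04 to 6.26) lay below every array median, so the size of its gap is uncertain too. KDM3A (1.01), ADM (0.93), PFKFB3 (0.72), EGLN1 (0.61) and PFKP (0.54) were higher. The PFKP call stood in 4 of the 12 fits without 1 array, that of EGLN1 in 7, that of ADM in 9 and that of PFKFB3 in 10, and the other 8 stood in all 12. HIF1A and EPAS1 did not pass between the lines (−0.04 and 0.36).

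**Figure D4:**
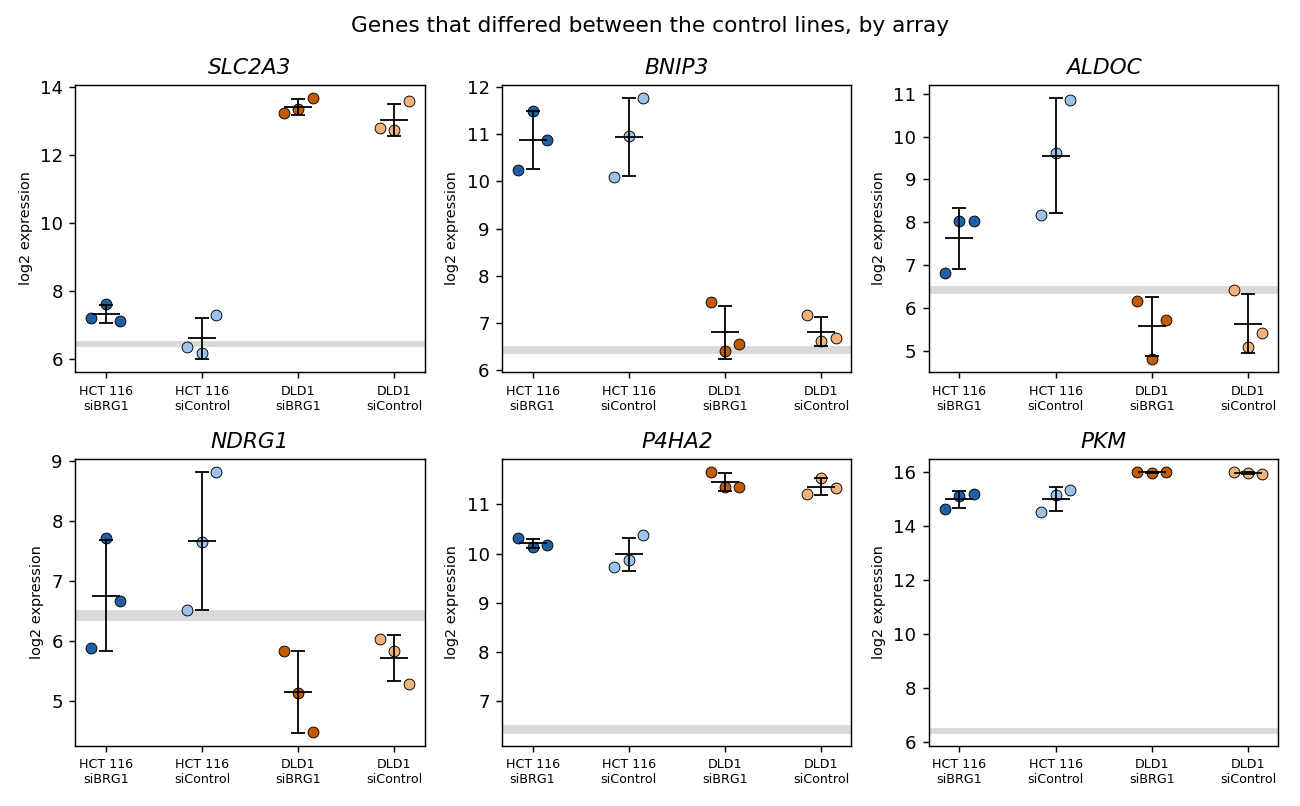
Log2 expression on each array (points), with the group mean and SD (n = 3), of 6 of the 13 genes that differed between the control lines. SLC2A3, P4HA2 and PKM sit lower in the HCT 116 groups than in the DLD1 groups, and BNIP3, ALDOC and NDRG1 sit higher. ALDOC and NDRG1 are widely spread in HCT 116, and the grey band is the range of array medians, 6.36 to 6.50.

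Further genes around the pathway were taken from 6 lists. Of 27 measured other hypoxia-induced genes, 2 rose and 1 fell in HCT 116 (11.1%, beside 6.95% of all named genes), with a median of −0.08. HMOX1, the heme oxygenase also driven by oxidative stress, read 9.27, 9.03 and 8.70 in HCT 116 siBRG1 against 6.52, 6.68 and 6.68 in HCT 116 siControl and rose by 2.38 (SE 0.27, limma adjusted p = 0.000174). The HCT 116 siControl values lay near the array medians, so the size of that rise is uncertain. The HMOX1 change in DLD1 was 0.97 and did not pass. BHLHE40, a repressor of the circadian clock, rose by 1.69 in HCT 116, against 0.03 in DLD1, and the collagen lysyl hydroxylase PLOD1 fell by 0.91. On average over both lines 1 of the 27 rose and 3 fell (14.8%, beside 8.68% of all named genes): HMOX1 (1.67), PLOD1 (−0.74), AK4 (−0.75) and ANKZF1 (−0.65).

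Of 13 measured genes of pyruvate entry into mitochondria, PDK3 (−1.24) and PDK2 (−1.10), kinases of the same family as PDK1, fell in HCT 116 and none rose (15.4%, beside 6.95%). In DLD1 their changes were −0.36 and 0.24. On average PDK3 fell (−0.80) and PDHX, a subunit of pyruvate dehydrogenase, rose (0.57), again 15.4%, beside 8.68%. Of 25 other enzymes of glycolysis, gluconeogenesis and glycogen, 3 fell and 1 rose in HCT 116 (16%, beside 6.95% of all named genes), and 8 fell and 1 rose on average (36%, beside 8.68%). PCK2, the mitochondrial enzyme that makes phosphoenolpyruvate, fell by 1.56 in HCT 116 (SE 0.40, limma adjusted p = 0.0311). All its HCT 116 values (4.14 to 6.32) lay below every array median, where they cannot be told from background. The glycogen phosphorylase PYGB fell by 1.12 in HCT 116, and TIGAR, a fructose-bisphosphatase induced by p53, rose by 0.94. On average PCK2 (−1.33), the gluconeogenic FBP1 (−0.96) and the glycogen synthase GYS1 (−0.72) fell most. The FBP1 average was made of −1.52 in DLD1 and −0.39 in HCT 116, neither of which passed alone (limma adjusted p = 0.108 and 0.612). Its HCT 116 values (3.62 to 4.87) lay below every array median. Of 7 measured genes of the pentose phosphate pathway, PGD fell in HCT 116 (−1.02), 14.3% of them, beside 6.95% of all named genes. PGD (−0.69) and H6PD (−0.79) fell on average, 28.6% of them, beside 8.68%. The H6PD values in HCT 116 (3.73 to 5.24) lay below every array median. Those in DLD1 (5.10 to 6.74) did too, except on DLD1 siControl replicate 1. These shares over few genes have no test of their own.

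Of 13 measured HIF partners and oxygen sensors, the coactivator CREBBP rose in HCT 116 (1.08) and on average (0.71), and ARNT, the obligate dimer partner of both HIF factors, rose on average (0.56, SE 0.13, limma adjusted p = 0.0167). That is 7.69% of the list in HCT 116, beside 6.95% of all named genes, and 15.4% on average, beside 8.68%. None of the 12 measured transporters of glucose and monocarboxylates passed after siBRG1. At an unadjusted p under 0.05 there were 2 in HCT 116 (16.7%, beside 20.4% of all named genes) and 1 in DLD1 (8.33%, beside 10.5%). In DLD1 no gene of the 6 lists passed. Between the control lines 39 of the 97 measured genes of the lists passed, 19 higher and 20 lower in HCT 116 siControl, a share of 40.2% beside 27.6% of all named genes. The pentose phosphate list had 1 higher and 4 lower (71.4%), and the hypoxia-induced list 7 higher and 2 lower (33.3%).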

How the data were processed

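RNA of 12 Affymetrix arrays was analysed from 1 table of log2 values that the authors deposited, with RMA and Affymetrix Power Tools named in the submitters' processing notes. Their versions and the genome build are not stated there. Of 21448 features, 17687 genes had a symbol, and the row with the highest mean stood for a gene with several. Group means were fitted to all 12 arrays with limma 3.58.1 in R 4.3.3 (lmFit, eBayes), with Benjamini-Hochberg adjustment over all named genes. Values per array were given for SMARCA4, the genes called after siBRG1, HIF1A and EPAS1, and the 5 called genes that differed most between the controls; those of GAPDH, GPI, BNIP3L, ADM, VEGFA, PFKP, PFKFB3 and HMOX1 were added after their values were seen. At most 3 called genes a list and comparison were named. The fit was tested on simulated data. The members, the 6 lists and the tests were chosen with earlier results of these data known. Same-numbered DLD1 arrays deviated together (correlations 0.49, 0.46 and 0.29 over all genes), which pairs them by the data, not by the labels. Replicate numbers came from the sample titles. In the source names of 4 HCT 116 samples the number inside the line's or the target's name steps up with the title's replicate number, while titles and descriptions give HCT 116 and BRG1 throughout. The number of arrays limits the precision. Alternatives changed the normalization, the features tested, array weights, the variance model, the threshold, the replicate block and the arrays included.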

Additional observations from a re-analysis of the deposited data

Results flagged for a closer look

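Of the 37 genes, 2 had siBRG1 arrays all on one side of the siControl arrays in HCT 116 and all on the other side in DLD1. How many of all named genes did so was not counted, so the 2 genes are not set apart by it. Groups that did not overlap made up 24.9% of all named genes in HCT 116 and 15.5% in DLD1. PFKP, the platelet-type phosphofructokinase subunit, lay between 14.91 and 15.11 in HCT 116 siBRG1, against 14.29, 14.68 and 14.87 in HCT 116 siControl. It read 13.96, 13.96 and 13.61 in DLD1 siBRG1 against 14.20, 13.98 and 14.03 in DLD1 siControl. Its change was higher in HCT 116 than in DLD1 by 0.619 (limma adjusted p = 0.495). PFKFB3 read 8.32, 7.89 and 7.80 in HCT 116 siBRG1 against 7.72, 7.25 and 7.78 in HCT 116 siControl, and 6.41, 6.31 and 6.44 in DLD1 siBRG1 against 6.74, 6.82 and 7.03 in DLD1 siControl. Its change was higher in HCT 116 by 0.906 (limma adjusted p = 0.253). Neither difference passed the test. The nearest arrays of both genes lay close together in HCT 116, those of PFKP in DLD1 too, and the PFKFB3 values in DLD1 siBRG1 lay at the array medians, where they cannot be told from background.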

How the results depend on the processing

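None of the 37 genes passed for the difference between lines under any alternative run, and no call changed direction. In DLD1 1 passed (VEGFA) with a replicate block in DLD1 alone, an alternative added after seeing the data, and 0 under the others. That block gave 3 in HCT 116, 4 on average and 16 between control lines. Over all named genes it called 1595, 1943 and 5295 there. In HCT 116 the count of 2 became 5 with a replicate block within each line, 6 with array weights, and 1 with a replicate block over all arrays, with quantile normalization, with arrays centred on their medians, with all features tested or at an adjusted p under 0.01. The average over lines gave 8 with the replicate block within each line, 5 with array weights and 1 at an adjusted p under 0.01, in place of 3. The control lines, compared across the blocks and not within them, gave 20 with the block within each line and 8 at an adjusted p under 0.01, in place of 13. Leaving out 1 array gave 1 to 4 in HCT 116, 2 to 6 on average and 10 to 14 between control lines. Over all named genes those fits called 618 to 1271, 797 to 1593 and 4135 to 4956. Over all named genes the replicate block within lines called 98 in place of 35 in DLD1. In HCT 116 it called 2123 in place of 1230. It called 2476 in place of 1536 on average and 5926 in place of 4884 between control lines. Array weights called 2035 in HCT 116 and 2306 on average. In HCT 116 the block over all arrays called 1358, quantile normalization 1243 and centring on medians 1204. At an adjusted p under 0.01 there were 418 in HCT 116, 494 on average and 3372 between control lines. Same-numbered HCT 116 arrays had deviation correlations of 0.30, 0.15 and 0.03 over all genes and 0.77, 0.15 and 0.32 over the 37, beside 0.77, 0.74 and 0.71 over the 37 in DLD1. HCT 116 siBRG1 replicate 2 correlated best with siControl replicate 3 (0.23 over all genes, 0.77 over the 37), and the HCT 116 numbers were not taken as pairs. The causes were not tested. The median SE of a change was 0.228. Signal over background limits the size of a change for genes at or below the array medians. Among these were ENO2, ANGPTL4, CA12 in HCT 116 siBRG1, EGLN3 in HCT 116, and ALDOC and NDRG1 in DLD1.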
